A study of Oryzias latipes with 84 samples.

Results

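The libraries described here came from the oldest fish of a bulk RNA-seq series of the medaka (Oryzias latipes) pituitary, 3 females of 375 days post-fertilization (dpf), compared with 3 adult females of 249, 255 and 277 dpf. Members were chosen by the sex and age on the labels, with earlier results of these data known. These 6 libraries are 6 of 84 in the series, which holds 68 females and 16 males with 1 pituitary and 1 library per fish. All 6 fish were of the transgenic line d-rR lhb:GFP, whose reporter gene for green fluorescent protein (GFP) is under the control of the lhb promoter and so marks Lh-gonadotropes, and the labels name no treatment. The 3 fish of 375 dpf (medaka115, medaka116 and medaka117 on the labels) measured 28, 29 and 26 mm, and the younger adults measured 27 mm (medaka122, 277 dpf), 25.5 mm (medaka123, 249 dpf) and 27.5 mm (medaka124, 255 dpf). Values of single fish are given in this order throughout. The 6 females of 131 to 179 dpf (medaka112 and medaka114 of 131 dpf, medaka120 and medaka121 of 172 dpf, and medaka118 and medaka119 of 179 dpf) are used below as a description of younger adults. The labels name no clutch, tank or library batch for any fish. As all 3 oldest fish were of the same age, and each of the younger fish was of another, age and a shared clutch or tank cannot be told apart.

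The pituitary releases peptide hormones into the blood. In teleosts each hormone is made largely by a cell type of its own: somatotropes make growth hormone (Gh), lactotropes prolactin (Prl), somatolactotropes somatolactin (Sl), melanotropes α-Msh, corticotropes Acth, thyrotropes Tsh, and separate gonadotropes make Fsh and Lh. Medaka females in captivity spawn daily under long days. In bulk RNA-seq, fewer cells of a type and less RNA per cell cannot be told apart.

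The deposited values are whole-number counts per gene, and levels are given as CPM, a gene's counts in every 1000000 counts of its library. The 6 libraries held 4505767 to 6575627 counts. RNA integrity numbers were 9.7 to 9.8 in the 4 fish for which the labels give a number. The 8 hormone genes, which define the tissue, were each at 2686 CPM or more in all 6 libraries. Expression profiles were much alike: the Spearman rank correlation over 24364 entries was 0.966 to 0.973 among the fish of 375 dpf, 0.950 to 0.967 among the younger fish and 0.948 to 0.973 between the groups. These correlations are across genes, which are not independent replicates. Pairs of fish from different groups were thus as similar as pairs from the same group.

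Growth hormone was the hormone gene that separated the groups. The level of gh (ENSORLG00000019556) was 89420, 80219 and 67551 CPM at 375 dpf, and 37416, 42885 and 30809 CPM at 249 to 277 dpf. Every fish of 375 dpf was above every fish of 249 to 277 dpf, with means of 79063 ± 10980 CPM and 37037 ± 6047 CPM (SD, n = 3 each). Non-overlap in CPM, which is scaled by library totals alone, was found in this direction for 577 of the 20212 genes tested (2.85%). In either direction it was found for 1 of the 23 genes named by the rule for this comparison, gh, and for 1963 of all genes tested (9.71%), so that non-overlap was not more common among the named genes. By the quasi-likelihood test of edgeR, which models the counts of all genes with scaling factors for library composition, the fold change of gh was 2.29 with a 95% interval of 1.36 to 3.86. This change did not pass the test (edgeR adjusted p = 0.841, unadjusted p = 0.0033, rank 75 of all genes). It passed in 3 of 16 alternative fits. These were DESeq2 (adjusted p = 0.000443), scaling to library totals alone (edgeR adjusted p = 0.00372) and detected genes per library as a covariate (edgeR adjusted p = 0.000656). The covariate was chosen after the data were seen. In the other fits gh did not pass, as against the 9 females of 131 to 277 dpf (edgeR adjusted p = 0.649). Over 16 alternatives the log2 fold change lay between 1.06 and 1.41 and the adjusted p between 0.000443 and 1.

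**Figure D1:**
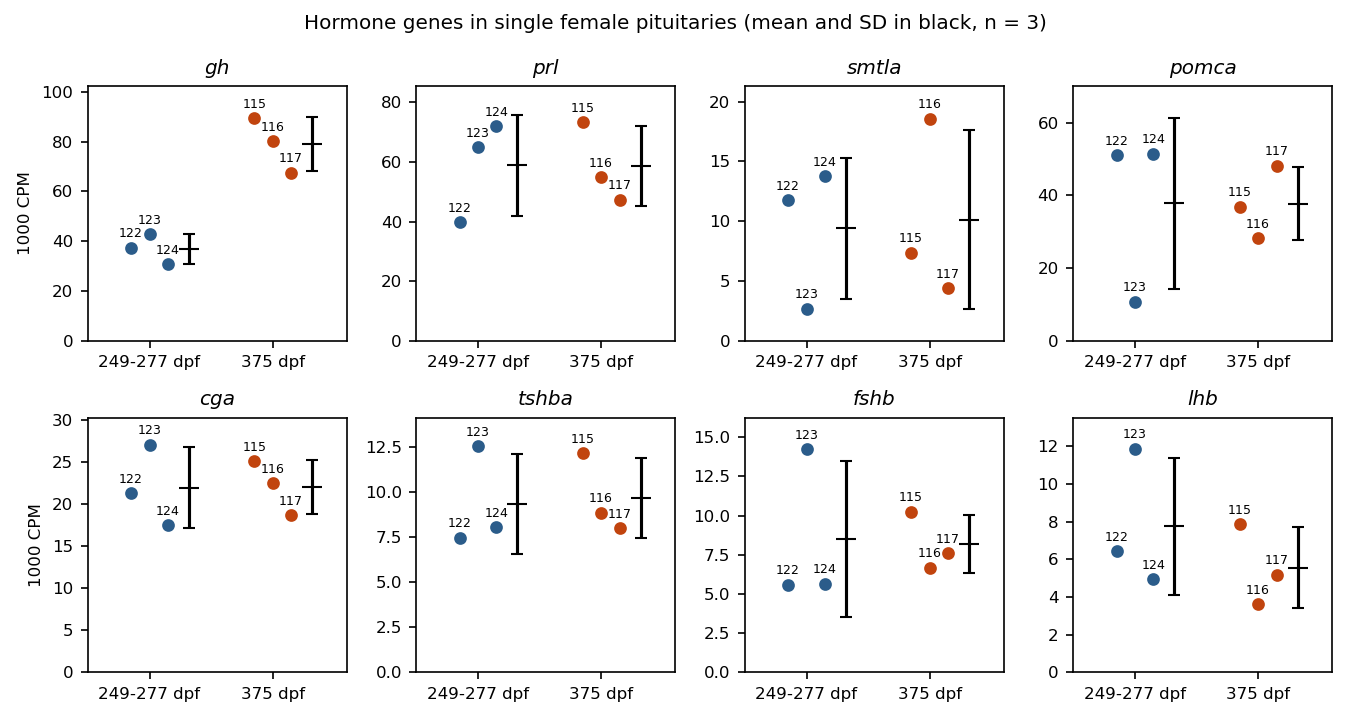
Levels of the 8 hormone genes in units of 1000 CPM (vertical axes, each from 0) in the single females of 249 to 277 dpf (blue) and 375 dpf (red), with the number of each fish beside its point and the mean and SD of 3 fish in black. The groups are apart for gh (30809 to 42885 CPM against 67551 to 89420 CPM) and overlap for the other 7 genes.

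The oldest fish also had the highest gh levels of all 68 females. Of the 65 younger females, 0 reached the 67551 CPM of medaka117, and the nearest was a juvenile of 32 dpf at 65094 CPM. Of 20212 genes, 18 (0.0891%) showed this order, with all 3 fish of 375 dpf above all other females. The juvenile and young adult groups varied widely. Median gh was 40428 CPM at 32 to 35 dpf (31909 to 65094 CPM, n = 4), 50139 CPM at 37 to 39 dpf (43660 to 60656 CPM, n = 4), 40548 CPM at 44 to 49 dpf (33592 to 62224 CPM, n = 8) and 42528 CPM at 53 to 59 dpf (32547 to 63381 CPM, n = 9). It was 26894 CPM at 64 to 74 dpf (9501 to 63296 CPM, n = 10), 33656 CPM at 79 to 92 dpf (2936 to 60705 CPM, n = 10), 37839 CPM at 96 to 111 dpf (22159 to 59701 CPM, n = 11) and 36005 CPM at 131 to 179 dpf (16760 to 48202 CPM, n = 6). The ranges of these 8 groups overlap each other, and that of 37 to 39 dpf lies above the range of 249 to 277 dpf while the others overlap it. None of the 8 overlaps the range of 375 dpf. This order of levels is a description, and no test was made of it.

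**Figure D2:**
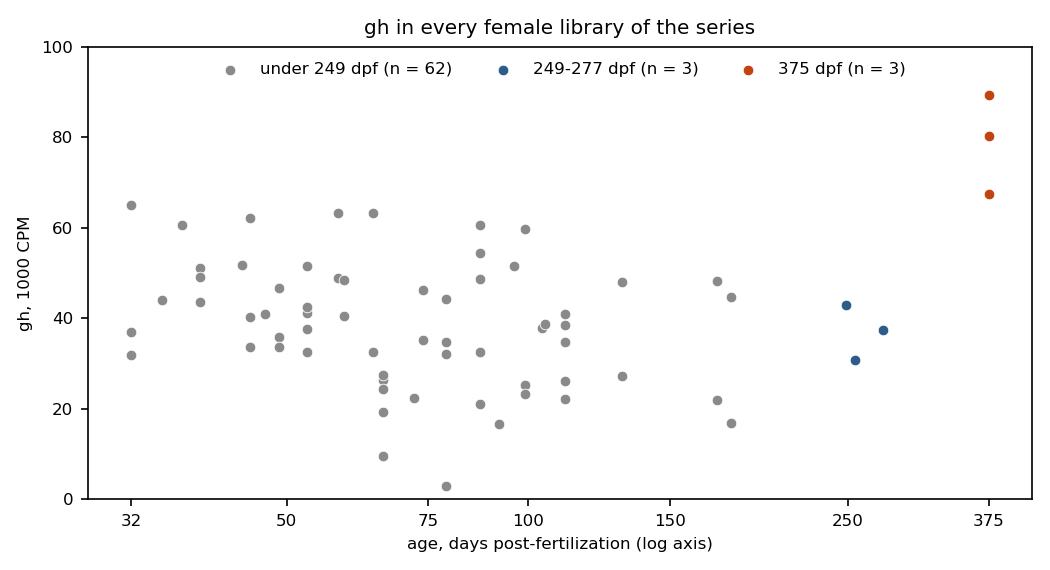
Level of gh in units of 1000 CPM (vertical axis, from 0) against age in dpf (horizontal log axis) in each of the 68 female libraries, with the females of 249 to 277 dpf in blue and those of 375 dpf in red. The 3 oldest fish, at 67551 to 89420 CPM, lie above all 65 others, of which the highest is at 65094 CPM.

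The related hormone prl (ENSORLG00000016928), whose product acts in the salt and water balance of fish, did not follow gh. It was at 73393, 54947 and 47330 CPM at 375 dpf, and at 39758, 64953 and 72026 CPM at 249 to 277 dpf. Both groups covered nearly the same range, and the fold change was 1.05 (95% interval 0.602 to 1.82, edgeR adjusted p = 0.993). Among all 68 females the oldest fish ranked 51, 61 and 62 for prl, which was at a median of 107322 CPM in the 65 younger females. The ratio of gh to prl counts, chosen after the values were seen, was 1.22, 1.46 and 1.43 in the fish of 375 dpf and 0.941, 0.660 and 0.428 in the younger fish. Counts of gh exceeded those of prl in all 3 oldest fish and in none of the 3 younger fish. The mean ratios differed by 0.692 (exact permutation test, two-sided p = 0.1, the smallest that 3 against 3 fish allow). As the ratio was chosen after its values were seen, this p adds no support. In the 6 females of 131 to 179 dpf this ratio was 0.341 to 0.799, so that prl counts were above gh counts in these fish too. Counts of gh above those of prl were not limited to the oldest fish. At 32 to 35 dpf (n = 4) the lowest prl level was 1215 CPM, and the lowest gh level was 31909 CPM.

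Together the 8 hormone genes took 26.25%, 22.36% and 20.69% of all counts at 375 dpf, and 18.09%, 18.70% and 20.42% at 249 to 277 dpf. The widest 95% Wilson interval of any share of counts given here spans 0.0727 percentage points, which covers counting error only. The oldest fish were the 3 highest, with 23.1% ± 2.85 against 19.07% ± 1.21 (SD, n = 3 each) and a difference of 4.03 percentage points (exact permutation test, two-sided p = 0.1, the smallest possible). Without gh, the other 7 hormone genes took 15.2% ± 1.84 and 15.37% ± 1.71 of counts (SD, n = 3 each, exact permutation test, two-sided p = 0.5). The higher hormone share of the oldest fish was thus carried by gh.

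The remaining hormone genes varied more within the groups than between them. For smtla (ENSORLG00000013460), encoding somatolactin, levels were 7384, 18577 and 4419 CPM at 375 dpf and 11787, 2686 and 13781 CPM at 249 to 277 dpf. This was the widest spread of the 8 genes, and the 95% interval of its fold change of 1.22 ran from 0.303 to 4.89. For pomca (ENSORLG00000025908), the gene of the precursor of α-Msh and Acth, levels were 36900, 28249 and 48140 CPM at 375 dpf and 51135, 10767 and 51504 CPM at 249 to 277 dpf. Here medaka123 lay far below the other 5, and the fold change was 1.09 (0.582 to 2.05). Neither gene passed the test (edgeR adjusted p = 0.991 and 0.992).

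The 4 genes of the glycoprotein hormones, Tsh, Fsh and Lh, encode a shared α-subunit and 3 β-subunits. The α-subunit gene cga (ENSORLG00000022598) was at 25112, 22490 and 18729 CPM in the oldest fish and at 21332, 27071 and 17484 CPM in the younger fish. Its fold change was 1.08 (0.665 to 1.74). The Tsh subunit gene tshba (ENSORLG00000029251) was at 12146, 8844 and 7991 CPM against 7458, 12542 and 8038 CPM. In both genes the highest fish was medaka123, followed by medaka115, and the groups overlapped. The same fish were highest for the gonadotropins. The Fsh subunit gene fshb (ENSORLG00000029237) was at 10245, 6670 and 7583 CPM at 375 dpf and at 5599, 14237 and 5662 CPM at 249 to 277 dpf, with a fold change of 0.994 (0.564 to 1.75). The Lh subunit gene lhb (ENSORLG00000003553) was at 7871, 3604 and 5187 CPM and at 6428, 11872 and 4939 CPM, with a fold change of 0.75 (0.435 to 1.29). No loss of gonadotropin transcripts at 375 dpf was detectable with 3 fish per group, and the interval for lhb reaches down to 0.435 of the level in the younger adults. Among all 68 females the oldest fish ranked 2, 4 and 9 for cga and 2, 5 and 8 for tshba. The highest of the 65 younger females was medaka123 for both genes. Such levels were shared with the adults of 249 to 277 dpf. Median cga was 22490 CPM at 375 dpf, 21332 CPM at 249 to 277 dpf and 21778 CPM at 131 to 179 dpf. For tshba the range at 249 to 277 dpf (7458 to 12542 CPM) covered that of the oldest fish. The 6 females of 131 to 179 dpf, at 3699 to 7816 CPM, were all below the lowest oldest fish for tshba.

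In all, 0 of the 8 hormone genes passed the test, while over all genes 7 of 20212 (0.0346%) did. The median log2 fold change of the 8 genes was 0.114, beside -0.0105 over all genes tested. A positive estimate was found for 6 of the 8, and for 48.7% of all genes. These signs depend on the scaling factors: with library totals only, prl (-0.0093) and pomca (-0.00258) turned negative.

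**Figure D3:**
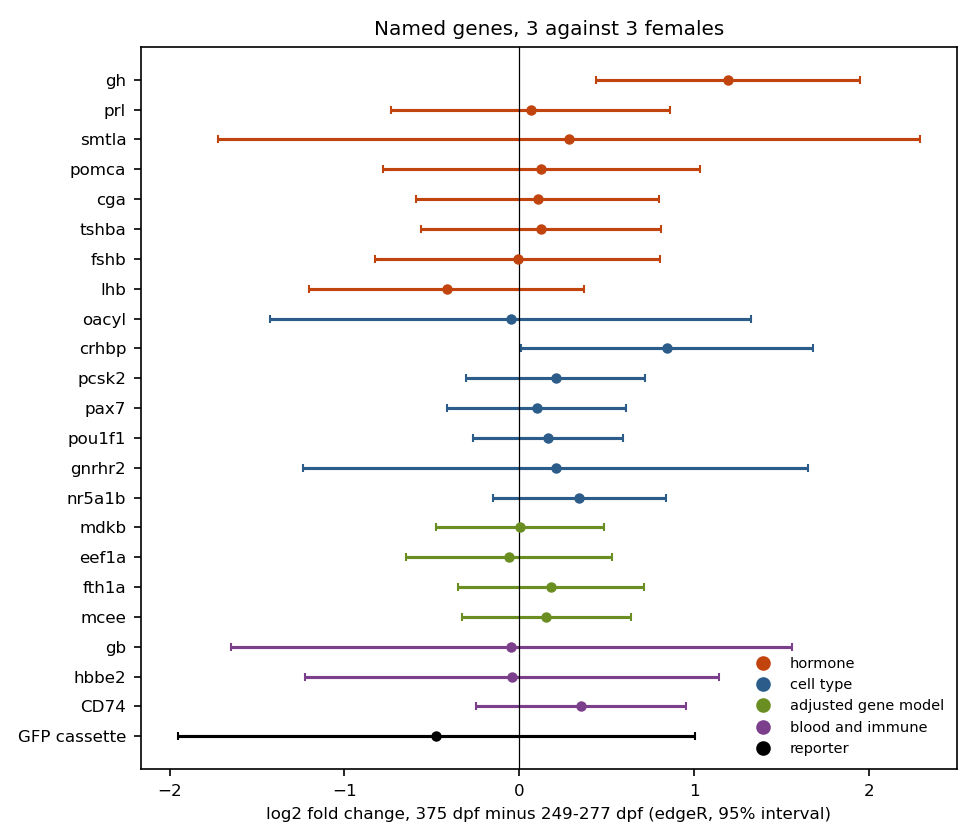
Log2 fold change of the 23 named genes, 375 dpf minus 249 to 277 dpf, with 95% intervals from edgeR (horizontal axis), in colours for hormone genes, cell type genes, adjusted gene models, blood and immune genes and the GFP reporter. The interval of gh (1.36- to 3.86-fold) lies to the right of 0, that of crhbp (1.01- to 3.20-fold) lies just beside it, and those of the other 21 span it.

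Genes that mark single cell types overlapped between the ages too. The melanotrope genes, apart from pomca, are oacyl, crhbp (the binding protein of corticotropin-releasing hormone), pcsk2 (a convertase that cuts peptide hormones out of their precursors) and pax7 (a transcription factor of melanotropes). Levels of crhbp (ENSORLG00000002228) were 247, 134.6 and 413 CPM at 375 dpf and 226, 84.6 and 166 CPM at 249 to 277 dpf. The groups overlap through medaka116, and the fold change of 1.79 (95% interval 1.01 to 3.20) had an unadjusted p of 0.0479 and an edgeR adjusted p of 0.976. For oacyl (ENSORLG00000005993) the levels were 348, 278 and 647 CPM against 673, 148 and 607 CPM. For pcsk2 (ENSORLG00000006472) they were 1216, 1046 and 1331 CPM against 1279, 754 and 1323 CPM, and for pax7 (ENSORLG00000004269) 24.6, 18.2 and 23.9 CPM against 33.7, 14.6 and 20.3 CPM. Again medaka123 was the lowest of the 6 for each of these genes, and 0 of them passed the test.

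Genes of the gonadotropes and of the somatotrope lineage overlapped between the ages as well. The GnRH receptor gene gnrhr2 (ENSORLG00000012659), expressed in Lh-gonadotropes, was at 149, 52.9 and 120.8 CPM at 375 dpf and at 158, 105 and 42.5 CPM at 249 to 277 dpf. The nuclear receptor gene nr5a1b (ENSORLG00000013196) was at 682, 908 and 647 CPM and at 672, 651 and 577 CPM, with a fold change of 1.27 (0.900 to 1.79), and medaka116 had the highest level of all 68 females. For pou1f1 (ENSORLG00000015870), which encodes a transcription factor needed for Gh and Prl cells in mammals, levels were 132.9, 128.05 and 163.7 CPM and 116.5, 139.4 and 142.8 CPM. Its fold change was 1.12 (0.832 to 1.51). Of the 7 cell type genes 0 passed the test, and their median log2 fold change was 0.207.

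The 4 other genes for which the study adjusted the gene models overlapped between the ages as well. The growth factor gene mdkb (ENSORLG00000014169) was at 790, 823 and 730 CPM at 375 dpf and at 821, 843 and 836 CPM at 249 to 277 dpf, a fold change of 1.00 (0.717 to 1.40). The elongation factor gene eef1a (ENSORLG00000007614) was at 5174, 4994 and 5040 CPM against 5210, 6441 and 5142 CPM. For both, as for fth1a (ENSORLG00000005872), a ferritin gene with a fold change of 1.13 (0.785 to 1.64), and mcee (ENSORLG00000022009), with 1.11 (0.796 to 1.55), the interval excludes a change of 2-fold in either direction.

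Blood and immune genes were measured as a check on the other cells in the dissected gland. The globin gene gb (ENSORLG00000003046) was at 1884, 1163 and 1618 CPM in the oldest fish and at 497, 2272 and 2108 CPM in the younger fish. The second globin gene, hbbe2 (ENSORLG00000026120), was at 4593, 2837 and 5068 CPM against 1516, 6117 and 5342 CPM. Both were lowest in medaka122 and highest in medaka123, and the ratio of gb to hbbe2 counts stayed between 0.319 and 0.410 in the 6 fish. The summed globin share was 0.400% to 0.669% at 375 dpf and 0.201% to 0.839% at 249 to 277 dpf, so that it did not separate the groups as gh did. The antigen presentation gene CD74 (ENSORLG00000004913) was at 1518, 624.7 and 1238 CPM and at 884, 1097 and 809 CPM, with a fold change of 1.28 (0.841 to 1.94). In 2 of the 3 oldest fish it was above all younger adults of 249 to 277 dpf, and in medaka116 it was below them.

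The GFP cassette, driven by the lhb promoter, was at 10723, 37677 and 8730 CPM at 375 dpf and at 18926, 23208 and 43671 CPM at 249 to 277 dpf. Its fold change was 0.72 with an interval of 0.258 to 2.01 (edgeR adjusted p = 0.979). The ratio of GFP to lhb counts was 1.36, 10.5 and 1.68 at 375 dpf, and 2.94, 1.96 and 8.84 at 249 to 277 dpf. The reporter thus ranged widely relative to its own promoter's gene within each age group. The fish medaka116 and medaka124, which had the highest ratios, had the lowest gnrhr2 levels of the 6. They also had the lowest lhb levels, 3604 and 4939 CPM, which is partly built in, as lhb is the divisor of the ratio. In the 6 females of 131 to 179 dpf the ratio was 1.21 in medaka118 and 7.81 to 10.3 in the other 5. Neither lhb nor the reporter separated the ages.

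Single fish stood apart in sets of these genes. The fish medaka123, of 249 dpf, was the lowest of the 6 for all 5 melanotrope genes and smtla. The 5 melanotrope genes summed to 1.18% of its counts and to 2.97% to 5.36% in the other 5 fish. Nearly all of this sum was pomca, at 10767 CPM in medaka123 and 28249 to 51504 CPM in the others. As pomca is also expressed in corticotropes, the sum is not a share of melanotropes alone. The same fish was the highest of the 6 for all 4 glycoprotein subunit genes, with 6.57% of counts against 3.61% to 5.54%. Melanotropes and somatolactotropes lie together in the pars intermedia, the part of the gland that borders on the neural lobe. How the dissection divided the gland was not tested. For gh, medaka123 was the highest of the younger fish, and without it the log2 fold change of gh was 1.41 (edgeR adjusted p = 0.0606). Leaving out the highest fish of the lower group in itself raises the estimate. With any other single fish left out, the edgeR adjusted p of gh was 0.382 or more.

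Few genes passed the test. Of 20212 genes tested, 4 were higher and 3 were lower at 375 dpf (edgeR adjusted p under 0.05, 0.0346% of genes in either direction). An unadjusted p under 0.05 was found for 966 of them, a share slightly under the 0.05 expected if no gene changed. The lowest adjusted p outside the 7 was 0.0652. The median log2 fold change of -0.0105, with 9844 positive and 10368 negative values, is set near 0 by the scaling factors. Non-overlapping groups were found for 577 genes with all fish of 375 dpf higher (2.85%) and for 1386 genes with all of them lower (6.86%). These shares rest on CPM without the scaling factors, which ran from 0.9119 in medaka116 to 1.201 in medaka122. Their effect on the excess of lower genes was not tested. Only 357 genes had an estimate past 2-fold. The precision allows a statement on well expressed genes: of 12979 genes with a mean of at least 10 CPM, 89.2% had a 95% interval that lies within a 2-fold change, at a median standard error of 0.232 on the log2 scale.

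**Figure D4:**
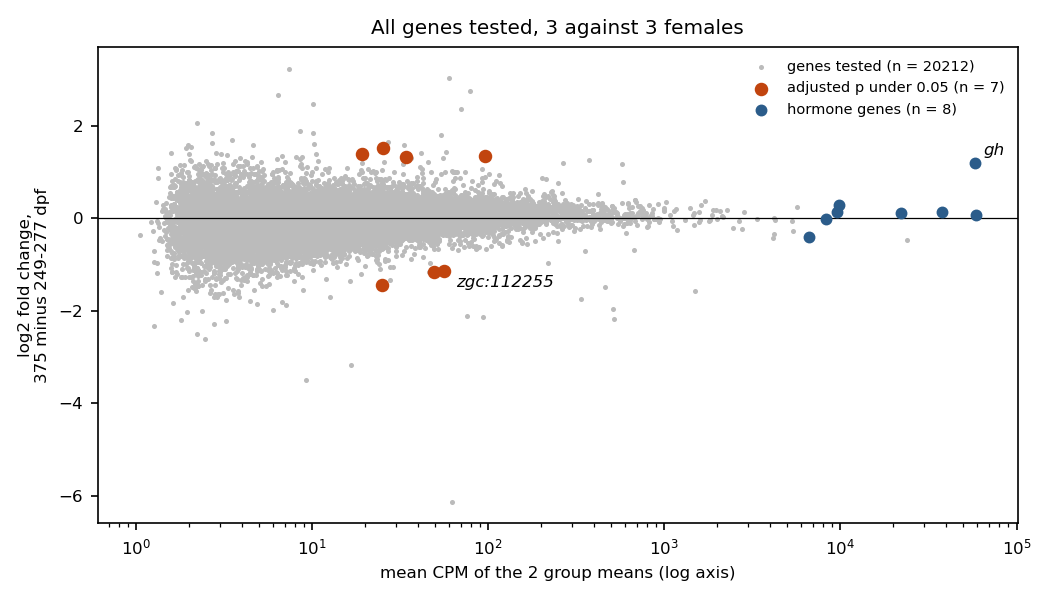
Log2 fold change, 375 dpf minus 249 to 277 dpf (vertical axis), against mean expression (horizontal axis, log scale) for the 20212 genes tested, with the 7 genes past the threshold in red and the 8 hormone genes in blue. The 7 genes have low to moderate levels, and gh, among the most abundant entries of all, has a log2 fold change of 1.19.

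The genes past the threshold had modest levels and moderate changes. The files and tables used here pair no symbol with the 4 higher genes. The first by p, ENSORLG00000013966, was at 118.5, 114.8 and 171.2 CPM at 375 dpf and at 62.81, 63.01 and 42.9 CPM at 249 to 277 dpf, a fold change of 2.54 (95% interval 1.87 to 3.43, edgeR adjusted p = 0.0198). None of the 65 younger females reached the lowest of the oldest fish, the same order as for gh. The next, ENSORLG00000001653, was at 24.6, 32.7 and 52.7 CPM against 17.3, 11.6 and 12.1 CPM, a fold change of 2.87 (2.01 to 4.09, edgeR adjusted p = 0.0198). Here 26 of the 65 younger females were at or above the lowest fish of 375 dpf, so that its high level was not found in the oldest fish alone. The other 2 higher genes had fold changes of 2.52 and 2.60 (edgeR adjusted p = 0.0198 and 0.0474). At or above the lowest fish of 375 dpf were 3 of the 65 younger females for the former and 0 for the latter. For each of the 4 genes, 0 of the 6 females of 131 to 179 dpf were above the lowest of 375 dpf. The genes were picked for high values in these same oldest fish, so this gives no separate support. The share of all genes with this order was not computed.

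Of the 3 lower genes, ENSORLG00000018016 was at 10.4, 10.2 and 17.8 CPM at 375 dpf and at 41.1, 36.8 and 33.2 CPM at 249 to 277 dpf, a fold change of 0.365 (0.261 to 0.512, edgeR adjusted p = 0.0198). For ENSORLG00000010452 the levels were 32.9, 27.2 and 26.5 CPM against 67.2, 68.4 and 72.6 CPM, a fold change of 0.445 (0.334 to 0.592, edgeR adjusted p = 0.0253). The third lower gene was zgc:112255 (ENSORLG00000012573), a name read from a heatmap of the study after the values were seen and not checked against another source, at 32.4, 38.8 and 28.0 CPM against 84.8, 63.9 and 88.2 CPM. It fell to a fold change of 0.454 (0.338 to 0.611, edgeR adjusted p = 0.0474).

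Low levels of the 3 lower genes were also found in young adults. In the fish of 131 dpf, medaka112 and medaka114, zgc:112255 was at 31.1 and 32.2 CPM, within the range at 375 dpf, whereas in the fish of 172 to 179 dpf it was at 68.7, 89.9 and 90.9 CPM in medaka119, medaka121 and medaka118 and higher still in medaka120. Likewise ENSORLG00000018016 was at 11.1 and 15.4 CPM at 131 dpf and at 30.1 to 41.5 CPM at 172 to 179 dpf. For ENSORLG00000010452 these values were 24.1 and 32.9 CPM, and 40.0 to 68.8 CPM. Fish of 131 dpf thus resembled those of 375 dpf in these 3 genes, and the levels did not follow age in 1 direction. Fish of these 2 ages carry adjoining numbers, medaka112 and medaka114 to medaka117, and those of 172 to 277 dpf are medaka118 to medaka124. For zgc:112255 the former reached 38.8 CPM at most, and the latter were at 63.9 CPM or more. The limits were 17.8 and 30.1 CPM for ENSORLG00000018016, and 32.9 and 40.0 CPM for ENSORLG00000010452. These genes were picked for low values in medaka115 to medaka117 beside medaka122 to medaka124, so that part of the split is built in. Only the place of the fish of 131 to 179 dpf was not fixed by this choice. The share of all genes with this split was not computed. Whether fish numbers follow the order of sampling or library preparation is not known, and its part was not tested. Among all 65 younger females, 14, 14 and 17 were at or below the highest fish of 375 dpf for ENSORLG00000018016, ENSORLG00000010452 and zgc:112255.

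**Figure D5:**
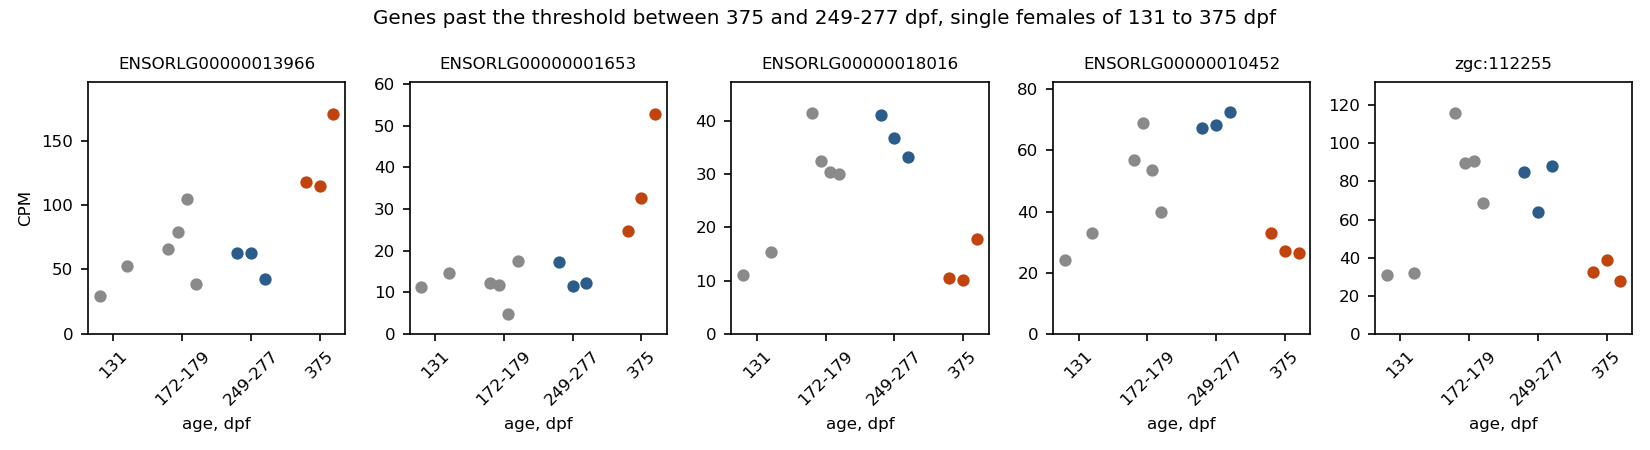
CPM of the 2 first genes higher at 375 dpf and of the 3 genes lower at 375 dpf (vertical axes, from 0) in single females, by age in dpf, with 375 dpf in red, 249 to 277 dpf in blue and younger adults in grey. For the lower genes the fish of 131 dpf lie near those of 375 dpf, as for zgc:112255 with 31.1 and 32.2 CPM beside 28.0 to 38.8 CPM.

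The counts of genes past the threshold rest on few fish. Without medaka115, medaka116 or medaka117 of 375 dpf, 1, 6 and 0 genes were higher and 0, 1 and 1 were lower. Without medaka122, medaka123 or medaka124, 9, 1 and 7 were higher and 6, 0 and 4 were lower. With DESeq2 in place of edgeR 17 were higher and 6 lower, and all 7 genes were among them. With the 9 females of 131 to 277 dpf as the younger group, 0 were higher and 1 was lower in edgeR, none of the 7 among them. An unadjusted p under 0.05 was found for 788 of 20811 genes, a share under the 0.05 expected if no gene changed. In a single fit of all 68 females the higher and lower genes again numbered 0 and 1. Here 262 of 22034 genes had an unadjusted p under 0.05, a share lower still. For each of the 7 genes the direction was the same under all 17 alternatives. The genes were picked from these same fish, in groups that do not overlap, so this gives no separate support.

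The number of genes detected was similar at both ages. After thinning each library to 4505767 counts, 22853, 22796 and 23101 entries had a count at 375 dpf, and 23221, 22796 and 23008 at 249 to 277 dpf. The difference of -91.67 was smaller than the spread within either group (exact permutation test, two-sided p = 0.7). The 10 most abundant entries of each library took 25.68% of counts at 375 dpf and 22.76% at 249 to 277 dpf (exact permutation test, two-sided p = 0.3).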

How the data were processed

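The authors amplified cDNA of single pituitaries with the Smart-SEQ HT kit, which carries no molecular identifiers, and deposited the count of reads per gene as whole numbers without any scaling. Their processing notes list STAR (2.7.6a), SAMtools (1.10) and HTSeq (0.11.2), and the reference was the Hd-rR genome with the study's own gene models and its GFP cassette added. Whether counting used the strand is not stated in the sources read, and reads of a gene and of an overlapping or antisense partner may be mixed.

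Here, CPM were computed per library. The 6 libraries were fitted alone by edgeR 4.0.16 under R 4.3.3, after filterByExpr, with TMM factors and the robust quasi-likelihood test, and p-values were adjusted over all genes by Benjamini-Hochberg (threshold 0.05). DESeq2 1.42.0, limma 3.58.1 (voom), other scaling, filters, covariates and groups, and each fish left out in turn were alternatives. Of these, the covariate of detected genes and voom were chosen after seeing the data. The edgeR fit, and none of the alternatives, was tested on simulated data. Single values were compared by exact permutation tests (Python 3.11.15, scipy 1.17.1). The replicate is the fish.

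Members and lists were chosen with earlier results of these data known. Named genes are the 19 that the paper's text pairs with an identifier, gb, hbbe2, CD74 and the GFP cassette, and the 2 identifiers of smallest p in each direction. As 0 entries of the reference gene table carry an Ensembl identifier, pathway lists, gene positions and sequences were not used.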

Additional observations from a re-analysis of the deposited data

Results flagged for a closer look

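A single fish far from the others was looked for among the 6 females of 131 to 179 dpf, the only group searched, in 31 measures, of which chance flags about 1 in 20. It was found in 4. Somatolactin gene smtla was at 11331 CPM in medaka112 and at 5484 to 6831 CPM in the other 5. The GnRH receptor gene gnrhr2 was at 174 CPM in medaka118 (others 17.5 to 69.2 CPM). For mdkb the level was 508 CPM in medaka119, with 886 to 1090 CPM in the other 5. This library also had the lowest RNA integrity number given for the 12 adult females, 8.0, whose part in the result was not tested. The GFP cassette was at 83655 CPM in medaka121 (others 21054 to 42574 CPM).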

How the results depend on the processing

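With 3 fish per group and a common biological coefficient of variation of 0.238, no gene with an estimate under 2-fold passed the test. Of the 357 genes with an estimate past 2-fold, 7 passed, and gh with a fold change of 2.29 did not. Changes of 2-fold and more may thus have gone uncalled too. All 7 genes past the threshold kept their direction under 17 alternatives, which their selection on these same fish nearly fixes. Each lost its call in 5 to 14 of the alternatives. Higher and lower genes numbered 17 and 6 with DESeq2, 0 and 1 with all 68 females in 1 fit, and 0 and 1 against 9 females of 131 to 277 dpf. They numbered 8 and 4 with no filter on low counts, 1 and 3 with limma voom and sample weights, and 4 and 1 with body length as covariate. With each fish left out in turn they ran from 0 to 9 and from 0 to 6. The hormone share differed by 4.847 points against 9 females (exact permutation p = 0.0182), and by 2.455 to 5.235 points with each fish left out. Among these 9 females medaka112, at 22.27%, was above medaka117 of 375 dpf, at 20.69%. The lowest was medaka119 at 10.84%, the library with an RNA integrity number of 8.0. The difference in detected genes of -91.67 became 31.33 with no thinning, -289 where at least 5 counts were asked for, 43.33 against 9 females, and -197.8 to 14.67 with each fish left out (14.67 without medaka122). No paired analysis was possible because each library came from a different fish and the labels link no fish between the groups. The cause of these changes was not tested.

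Among named genes that did not pass the test, some log2 fold changes reversed. With library totals only they were -0.0093 for prl, -0.00258 for pomca, -0.0375 for pax7 and -0.0945 for mdkb. Against 9 females they were -0.0385 for prl, 0.0503 for oacyl, -0.115 for pax7, -0.0842 for mdkb and 0.000771 for eef1a. With body length as covariate they were -0.034 for prl, -0.576 for smtla, 0.412 for fshb, -0.0635 for mdkb, 0.117 for gb and 0.204 for hbbe2. With detected genes as covariate they were -0.115 for prl, -0.0421 for cga, -0.0367 for tshba, 0.374 for oacyl and -0.093 for mdkb. With voom they were -0.0517 for prl, -0.119 for smtla, 0.275 for fshb and -0.0486 for mdkb, and with no filter 4.94e-05 for fshb. With each fish left out in turn the range was -0.218 to 0.251 for prl, -0.553 to 0.772 for smtla, -0.291 to 0.515 for pomca, -0.0201 to 0.384 for cga and -0.102 to 0.494 for tshba. It was -0.304 to 0.71 for fshb, -0.796 to 0.157 for lhb, -0.449 to 0.257 for oacyl, -0.0823 to 0.346 for pax7 and -0.00964 to 0.275 for pou1f1. It was -0.155 to 0.518 for gnrhr2, -0.104 to 0.111 for mdkb, -0.201 to 0.143 for eef1a, -0.505 to 0.337 for gb, -0.483 to 0.359 for hbbe2 and -1.52 to 0.00247 for the GFP cassette.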
